A study of Mus musculus with 12 samples.

Results

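Mouse embryonic fibroblasts (MEFs) lacking RelA and the product of Nfkb2 differed from WT MEFs before any TNF was added, at 2036 of the 9462 genes and unnamed probes compared. Of these, 976 were higher and 1060 were lower in untreated Rela-/-Nfkb2-/- cells. The lower genes included the NFκB inhibitors Nfkbia and Tnfaip3 and the acute phase genes Saa3, Hp and Cp. All 7 HoxB genes compared were also lower, but 6 of them were not above background in the mutant and so had to differ. The higher genes included 19 of 30 interferon-stimulated genes, 22 of 43 collagen and matrix genes, and the surface markers Thy1 and Pdpn, which differed by more than any of the NFκB genes. Over all features tested 9.85% were higher and 10.6% lower, and the interferon-stimulated genes called were 12 without the first mutant array and 9 and 10 without the first and the second WT array.

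Total RNA of MEFs from C57BL/6 mice was hybridised to Illumina MouseRef-8 v2.0 arrays, which use 1 colour. The MEFs were prepared from E13.5 embryos and immortalized by the 3T3 protocol. The compared groups were untreated Rela-/-Nfkb2-/- cells (2 arrays) and untreated WT cells (2 arrays). The other 8 arrays were of both genotypes after 6 h with TNF (10 ng/ml) and of Rela-/-Relb-/-Rel-/- cells, which lack RelA, RelB and cRel, untreated or treated in the same way, and they shared the estimate of the spread. The 9462 members were chosen by the detection p-value, which had to be under 0.05 on both arrays of either compared group, out of 10031 features tested over the series, and 8739 of them carried a gene symbol. Values are log2 of the normalized signal, differences are Rela-/-Nfkb2-/- minus WT with the standard error (SE) of the linear model, and a gene was called higher or lower at an adjusted p under 0.05 (limma, Benjamini-Hochberg over all features). Whether the 2 arrays of a group were separate cultures is not stated, and the p-values cover only their spread, which may be technical. Nor is it stated that a genotype was represented by more than a single line, so genotype and cell line cannot be told apart. RNA came from whole cultures, in which fewer cells of a kind and less RNA per cell cannot be told apart.

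NFκB is a family of dimeric transcription factors. In resting cells the dimers are held inactive by IκB proteins, among them IκBα, encoded by Nfkbia. The Nfkb2 gene encodes p100, which is itself an inhibitor with IκB-like repeats and is processed to the subunit p52. RelA-containing dimers carry the canonical response to TNF, and several inhibitors of the pathway, such as IκBα and A20 (Tnfaip3), are also target genes that feed back on it. These dimers bind κB sites, 10-base elements that begin with a run of G and end in pyrimidines. A form of it, GGGNNTTTCC, was looked for on both strands of the RefSeq promoters (GRCm38.p6, from 250 bases before to 50 bases after each annotated start), and was present at 1.89% of the 27025 genes with a promoter there. Among the NFκB subunits and inhibitors, 4 of the 11 members with a promoter held it. These were Nfkbia and Tnfaip3, of 5 genes lower in Rela-/-Nfkb2-/- cells, and Cyld and Nfkb2, of 6 others, Nfkb2 at 2 annotated starts. The match is printed in capitals, read along the gene's strand, and says nothing of binding.
Nfkbia, chr12:55492648-55492701, minus strand: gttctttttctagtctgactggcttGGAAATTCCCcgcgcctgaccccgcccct
Tnfaip3, chr10:19015411-19015447, minus strand: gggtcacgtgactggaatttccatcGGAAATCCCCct
Nfkb2, first start, chr19:46304701-46304736, plus strand: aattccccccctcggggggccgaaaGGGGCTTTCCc
Nfkb2, second start, chr19:46305680-46305739, plus strand: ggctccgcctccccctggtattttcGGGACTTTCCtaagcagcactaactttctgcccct

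The genes deleted in the mutant were examined before the others. The Rela probe had log2 signals of 10.80 and 10.28 in Rela-/-Nfkb2-/- cells, against 12.60 and 12.66 in WT cells. Both mutant arrays lay below both WT arrays, by 2.09 ± 0.24 (SE; adjusted p = 0.000274), although the probe stayed above background. The Nfkb2 probe did not separate the genotypes: it read 7.23 and 8.83 in Rela-/-Nfkb2-/- cells, against 8.83 and 8.64 in WT cells. Its difference was -0.71 ± 0.63 (adjusted p = 0.501), and the second mutant array was at the WT level. The position of these probes relative to the deleted exons is not known here, so they are a limited check of the genotypes.

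Of the 11 genes of NFκB inhibitors, Nfkb2 left aside, 4 were lower in the mutant and 1 was higher. Nfkbia read 9.90 and 9.93 in Rela-/-Nfkb2-/- cells, against 11.58 and 11.54 in WT cells, a difference of -1.64 ± 0.18 (adjusted p = 0.000223). Tnfaip3, which encodes the ubiquitin-editing enzyme A20, read 6.62 and 7.76 against 9.33 and 8.79, a difference of -1.87 ± 0.41 (adjusted p = 0.0116). In both genes the mutant and WT arrays did not overlap, as was the case at 56.7% of all features. In Tnfaip3 the mutant arrays lay more than 1 log2 unit apart. Nfkbid, the gene of the nuclear inhibitor IκBNS, was not above background on either mutant array (5.04 and 4.95) and read 8.10 and 8.24 in WT cells, so that it was at least 5.26-fold lower. Relb, the gene of the subunit RelB, read 8.22 and 7.88 in Rela-/-Nfkb2-/- cells, against 9.16 and 9.23 in WT cells (-1.15 ± 0.25, adjusted p = 0.0108). Tnip1, whose product works with A20, was lower by 0.97 ± 0.18 (adjusted p = 0.00449), but was not called with median scaling (limma adjusted p = 0.0976). The call of Relb was lost without the second mutant array or either WT array (adjusted p up to 0.0714), and that of Tnfaip3 without the first array of either genotype (up to 0.091).

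Only Bcl3, a nuclear IκB protein that can co-activate p50 and p52, was called higher among the 14 members of the group, at 9.04 and 9.43 in Rela-/-Nfkb2-/- cells and 7.96 and 8.21 in WT cells (1.15 ± 0.19, adjusted p = 0.00256). The remaining inhibitors differed by less: Nfkbib by -0.53, Nfkbie by -0.42, Tnip2 by -0.42, Cyld by -0.36, Otud7b by 0.17 and Nfkbiz by 0.35, and none of them passed the threshold. In all, 1 member was higher and 6 were lower, with a median difference of -0.62. The deleted Rela was among the 6, and the median includes Rela and Nfkb2. Over all features tested, 9.85% were called higher, 10.6% lower and 20.5% either way, with a median difference of -0.02. The kinases and adaptors upstream of NFκB stood closer to that background, with 2 of 22 higher, 4 lower and a median of -0.05. Those lower were Traf1, Ikbke, Ltbr and Map3k14, the gene of the kinase NIK, and those higher were Cd40 and Traf6, but only Traf1 kept its call whichever of the compared arrays was left out. The adjusted p reached 0.0936 for Ikbke, 0.101 for Ltbr and 0.213 for Map3k14 without the second mutant array or either WT array, 0.0858 for Cd40 without the first mutant array or either WT array, and 0.249 for Traf6, which lost its call without any of the 4. The other probes of Traf6 differed by -0.19 and 0.23. The list then held 1 lower gene without either WT array, and 2 without the second mutant array.

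**Figure D1:**
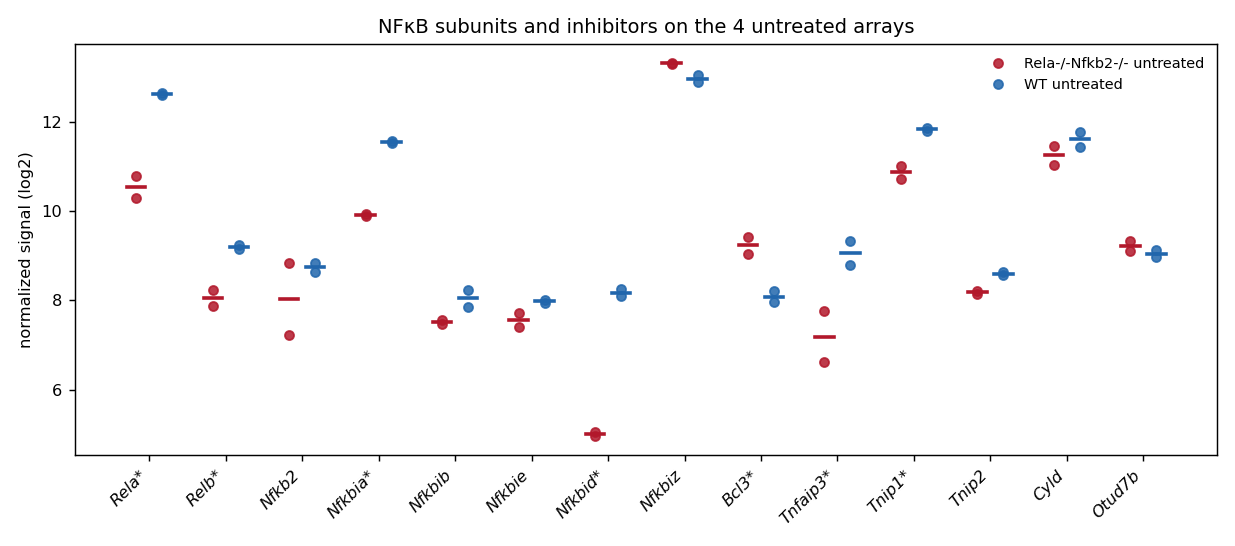
Normalized log2 signal (vertical axis) of the 14 NFκB subunits and inhibitors on the 4 untreated arrays, with Rela-/-Nfkb2-/- at the left of each pair and WT at the right; points are arrays, horizontal bars are the means of 2 arrays, and asterisks mark genes called. Rela, Relb, Nfkbia, Nfkbid, Tnfaip3 and Tnip1 lay lower in Rela-/-Nfkb2-/- cells and Bcl3 higher, while the Nfkb2 arrays of the mutant were spread over 7.23 to 8.83.

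The plot of NFκB genes by array also shows that the mutant arrays agreed less with each other than the WT arrays did. Over the 9462 members the difference between the 2 arrays of a group had an SD of 0.68 in Rela-/-Nfkb2-/- cells and 0.27 in WT cells. In the mutant, 1076 members lay more than 1 log2 unit apart, 739 of them lower on the first array, against 53 members in WT. Only 123 of those 1076 were called. Median raw signals were 94.9 and 115.1 on the mutant arrays and 141.5 and 103.6 on the WT arrays, with 12315 and 12599 probes above background in the mutant and 12075 and 12214 in WT.

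The differences in normalized signal spanned a wide range. Among the called members, 690 were more than 2-fold higher and 599 more than 2-fold lower, and 157 and 68 were more than 8-fold higher and lower. Members above background in a single genotype entered through the genotype in which they were high, and so had to differ: 304 of the 390 that were above background on both mutant arrays and neither WT array were called higher, and 153 of the 227 in the opposite case were called lower. Of the 8334 members above background on all 4 arrays, 628 were higher and 838 lower. Of the 569 features outside the rule, 12 were higher and 7 lower. Where a called gene had other probes above background on all 4 arrays, 382 of 410 of them differed in the same direction as the probe used.

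The surface markers Thy1 and Pdpn were among the genes that differed most. Thy1, a GPI-anchored surface protein widely used as a fibroblast marker, read 13.36 and 13.94 in Rela-/-Nfkb2-/- cells and 5.01 and 5.01 in WT cells, where it was not above background, so that it was at least 220-fold higher. Pdpn, the gene of the mucin-like surface protein podoplanin, read 13.87 and 13.82 against 7.45 and 7.43, a difference of 6.40 ± 0.19 (adjusted p = 8.45e-08). The genotypes were far apart for both genes, and the mutant arrays lay within 1 log2 unit of each other. In untreated Rela-/-Relb-/-Rel-/- cells Thy1 was near background (5.40 and 5.22) and Pdpn was high (14.34 and 14.37), so the line that also lacks RelA shared the high level of Pdpn but not that of Thy1. Lpl, encoding lipoprotein lipase, read 13.27 and 12.91 in Rela-/-Nfkb2-/- cells and 7.80 and 6.71 in WT cells (5.84 ± 0.32). Ptn, encoding the growth factor pleiotrophin, read 14.11 and 14.07 against 8.52 and 9.55 (5.06 ± 0.47). Cacna1g, a T-type calcium channel subunit, was higher by 5.25 ± 0.38, Slc1a3, a glutamate transporter, by 4.76 ± 0.34, and Crabp1, a retinoic acid binding protein, by 4.49 ± 0.15. Dkk3, Lrrc15, Cyp7b1, an oxysterol hydroxylase, and Gpc3, the heparan sulfate proteoglycan glypican-3, were not above background in WT cells and were at least 78.4-, 70.8-, 53.8- and 45.3-fold higher.

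In the other direction, Ptgis, encoding prostacyclin synthase, read 5.06 and 4.88 in Rela-/-Nfkb2-/- cells, not above background, and 12.32 and 12.51 in WT cells, and was at least 99.8-fold lower. Ptges, encoding the inducible prostaglandin E synthase, read 5.18 and 5.21 in Rela-/-Nfkb2-/- cells against 10.90 and 10.77 in WT cells, at least 33.3-fold lower. Of these enzymes, which both use the product of the cyclooxygenases, Ptgis was high in untreated Rela-/-Relb-/-Rel-/- cells (13.82 and 13.71) and Ptges was not (5.51 and 5.45). Col2a1, the collagen of cartilage, was at least 67.7-fold lower, Sim2, a bHLH-PAS transcription factor, at least 27.8-fold and Esm1, an endothelial-type secreted proteoglycan, at least 31.2-fold. Prss22, a serine protease, was lower by 5.61 ± 0.24, Xdh, encoding xanthine dehydrogenase, by 4.10 ± 0.45, and Chst1, a keratan sulfate sulfotransferase, by 3.81 ± 0.25.

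**Figure D2:**
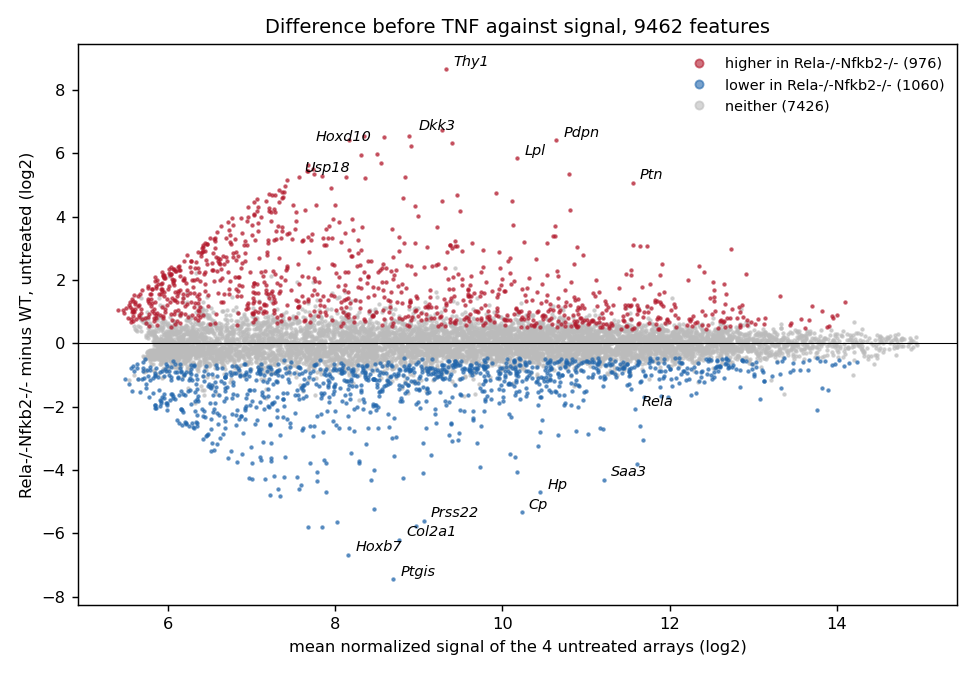
Difference between untreated Rela-/-Nfkb2-/- and WT cells (log2, vertical axis) against the mean normalized signal of the 4 untreated arrays (log2, horizontal axis) for the 9462 members; red points were called higher (976), blue lower (1060) and grey neither (7426). Thy1 is the highest point and Ptgis the lowest, each plotted at its normalized signals although a genotype was not above background, and the straight upper and lower edges at the left are formed by genes near background in a single genotype.

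Of 14 complement and acute phase genes, whose products are secreted during inflammation, 5 were higher and 4 lower, with a median of 0.27. Members above background in a single genotype had to differ. Of the 10 above background on all 4 arrays, 2 were higher and 4 lower, with a median of -0.48. The 4 lower were Saa3, Hp, Cp and Lcn2. Saa3, a serum amyloid A protein, read 9.35 and 8.77 in Rela-/-Nfkb2-/- cells, against 13.50 and 13.23 in WT cells (-4.30 ± 0.28, adjusted p = 8.32e-06). Hp, encoding haptoglobin, read on average 8.10 against 12.81 (-4.71 ± 0.51), and Cp, encoding the ferroxidase ceruloplasmin, 7.77 and 7.35 against 12.70 and 13.10 (-5.34 ± 0.22). Lcn2, the siderophore-binding lipocalin, was lower by 2.11 ± 0.31 (adjusted p = 0.00128). These 4 genes were above background on all 4 arrays and their genotypes did not overlap, as was the case at 56.7% of all features. The 5 higher were mostly complement genes: C2 (at least 9.42-fold), C4b (3.26 ± 0.28), the C1 inhibitor gene Serping1 (at least 8.85-fold) and Cd59a, which blocks the membrane attack complex (2.14 ± 0.32), were higher, as was the acute phase gene Orm1 (at least 3.92-fold).

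Chemokines and cytokines were more often lower, with 12 of 27 members lower, 4 higher and a median of -0.35. Ccl2, the monocyte attractant, read 9.23 and 9.67 in Rela-/-Nfkb2-/- cells and 11.00 and 10.91 in WT cells (-1.51 ± 0.25, adjusted p = 0.00225). Lif, a cytokine of the IL-6 family, was lower by 2.36 ± 0.27, Il33, an alarmin, by 2.28 ± 0.21, and Il34, a ligand of the CSF1 receptor, and Ccl17 were at least 4.99- and 3.83-fold lower. The 4 higher genes were Ccl5, Cxcl10, Cxcl5 and Tnfsf13b, which encodes the B-cell factor BAFF. Cxcl5 read 8.43 and 10.03 in Rela-/-Nfkb2-/- cells but was not above background in WT cells (4.86 and 4.97), at least 10.3-fold higher. Ccl5 read 8.47 and 9.88 in Rela-/-Nfkb2-/- cells and 7.35 and 7.53 in WT cells (1.73 ± 0.43, adjusted p = 0.0199). The calls of Ccl5 and Cxcl10 were lost without either WT array, and without the second and the first mutant array (adjusted p up to 0.108 and 0.0912), which left 2 higher genes. Cxcl1, the neutrophil attractant, did not pass, at 14.23 and 13.60 in Rela-/-Nfkb2-/- cells and 14.05 and 14.03 in WT cells.

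Of 30 interferon-stimulated genes, 19 were higher in the mutant and 11 did not pass. This group is switched on by interferons through the interferon-stimulated response element (ISRE), whose core GAAANNGAAA was searched on both strands of the same promoters. It stood at 3.99% of the 27025 genes with a promoter, and at 11 of 22 members of the list that had one: 6 of the 12 called higher and 5 of the 10 not called. Of all members with a promoter, 5.45% of those higher held it, 3.12% of those lower and 3.49% of the rest. Isg15 and Ifit3 are shown as examples of higher genes with several matches, in capitals, and were not the only ones.
Isg15, chr4:156200850-156200921, minus strand: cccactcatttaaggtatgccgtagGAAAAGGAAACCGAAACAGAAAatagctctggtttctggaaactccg
Ifit3, chr19:34583348-34583441, plus strand: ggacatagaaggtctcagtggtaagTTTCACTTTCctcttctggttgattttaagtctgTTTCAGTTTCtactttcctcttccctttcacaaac

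The list had 0 lower members and a median difference of 1.34, or 1.17 with genes not above background in a genotype at their bound. Of the 21 above background on all 4 arrays, 11 were higher and 0 lower. Usp18, a protease that removes ISG15 from proteins, read 11.63 and 10.32 in Rela-/-Nfkb2-/- cells but was not above background in WT cells (5.65 and 5.83), at least 34.4-fold higher. Isg15, the ubiquitin-like modifier, read 10.35 and 9.05 in Rela-/-Nfkb2-/- cells and 5.80 and 6.36 in WT cells, where it was above background on 1 array (3.62 ± 0.57, adjusted p = 0.00178). Oasl2 and Mx2, an antiviral GTPase, were at least 15- and 7.02-fold higher. Of the factors that drive the group, Stat2 was higher by 1.36 ± 0.29 and Irf9 by 1.54 ± 0.25, and Irf7 read 7.65 and 6.33 in Rela-/-Nfkb2-/- cells and 4.99 and 4.88 in WT cells. Parp14 was higher by 2.14 ± 0.41 and Gbp3, a guanylate-binding GTPase, by 1.82 ± 0.39.

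The list was uneven. Ifit2, Ifitm3, Irf1, Gbp2, Zbp1 and Samd9l differed by -0.18 to 0.07, all with both genotypes above background. Gbp2b, a guanylate-binding gene outside the list, was at least 15.7-fold lower, at 4.92 and 4.92 in Rela-/-Nfkb2-/- cells and 9.88 and 9.61 in WT cells. Of the 19 higher genes 15 stood higher on the first mutant array than on the second. Without the first mutant array 12 genes were called, and without the first or second WT array 9 and 10. The calls of Ifit3, Irf7 and Dhx58 were among those lost in these settings (adjusted p up to 0.146, 0.148 and 0.0971), with Stat2 without the first array of either genotype (0.0709) and Gbp3 without the first mutant or the second WT array (0.0757). Against the untreated Rela-/-Relb-/-Rel-/- cells, 18 of the 30 genes were higher in Rela-/-Nfkb2-/- cells and 0 lower, beside 17.8% of all features called higher and 15.8% lower in that comparison, which was fitted without a block although same-numbered arrays of the 2 mutants deviated together (correlation 0.67). Isg15 read 5.83 and 5.80 in the triple mutant, and Usp18 4.96 and 5.01. Genes of MHC class I presentation were not called higher: 0 of 15 were higher and 1, the transactivator Nlrc5, was lower (-1.75 ± 0.40). Pattern recognition receptors and their adaptors, which lie upstream of interferon, stood in both directions, with 3 of 18 higher (Irak3, Nod1 and Dhx58) and 4 lower (Aim2, Tlr4, Nod2 and Mavs). Without the first WT array Nlrc5 and Nod2 were not called (adjusted p = 0.0998 and 0.068), Tlr4 lost its call without the second mutant array or either WT array (up to 0.123), and Mavs without any of the 4 (up to 0.205).

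Collagens and structural matrix proteins, the products by which fibroblasts build connective tissue, were higher at 22 of 43 members and lower at 1, with a median of 0.80. Of the 32 above background on all 4 arrays, 13 were higher and 1 lower. Col4a1, a basement membrane collagen chain, read 14.30 and 14.12 in Rela-/-Nfkb2-/- cells and 11.31 and 11.18 in WT cells (2.96 ± 0.17, adjusted p = 4.18e-06), and its partner Col4a2 was higher by 1.86 ± 0.19. Col1a1, the main chain of type I collagen, read 14.02 and 14.59 against 13.08 and 13.15 (1.19 ± 0.26), and Col3a1 10.72 and 11.66 against 8.89 and 9.08 (2.21 ± 0.49). The microfibril genes Mfap2 and Mfap4 and the collagen-binding proteoglycan gene Fmod were not above background in WT cells and were at least 23-, 23.5- and 11.5-fold higher. Efemp1 was the only member lower, by 2.57 ± 0.26, and Bgn, Tnc, Lox and Hspg2 differed by -0.05 to 0.08. Col1a1 and Col3a1 were not called without the second mutant array or either WT array (adjusted p up to 0.0684 and 0.0752).

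The proteases that remodel matrix, with their inhibitors, were higher at 12 of 24 members and lower at 2. Mmp13, an interstitial collagenase, read 12.13 and 12.48 in Rela-/-Nfkb2-/- cells and 9.72 and 8.15 in WT cells (3.37 ± 0.44, adjusted p = 0.000634), but another probe of Mmp13 differed by 0.07 (unadjusted p = 0.643 in limma). Mmp3, encoding stromelysin-1, was higher by 2.30 ± 0.36, Adamts1 by 2.25 ± 0.43 and Ctsk, encoding the collagen-cleaving cathepsin K, at least 16.9-fold, while Mmp2, the gelatinase, was lower by 1.41 ± 0.19 and Ctsl by 2.23 ± 0.33. Without the second WT array 6 of the list were higher.

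The labelled cell type was checked against its markers. Of 24 fibroblast markers listed, 19 were members, 7 were higher and 0 lower, and their summed signal, on the linear scale, was 118592 and 145044 in Rela-/-Nfkb2-/- cells against 103011 and 95780 in WT cells. Vim, the intermediate filament of mesenchymal cells, read 14.15 and 14.21 in Rela-/-Nfkb2-/- cells and 14.54 and 14.43 in WT cells, and Twist1, Prrx1 and Dcn were above background on all arrays and not called. Pdgfra, the platelet-derived growth factor receptor of mesenchyme, read 13.10 and 13.25 against 10.09 and 10.13 (3.06 ± 0.28). Without the first WT array 4 of the markers were higher. Among the 19 only Thy1 was not above background on either WT array, and 1 further listed marker was tested but was no member. Of the blood cell markers 2 were members, Cd14 and Coro1a, and Coro1a was lower. Their summed signals were 732 and 466 in the mutant and 899 and 692 in WT. Coro1a lost its call when any of the 4 arrays was left out, with differences then of -0.968 to -0.828. Of 7 endothelial markers 1 was higher and 1 lower, and of 9 keratin and epithelial markers 2 were higher (Krt19, Pkp2) and 2 lower (Krt7, Pkp1). Smooth muscle and contractile genes were higher at 5 of 22 members and lower at 3, and neural and glial markers at 2 and 1 of 8. Of 7 adipocyte markers 2 were lower, and of 3 skeletal and cardiac muscle markers 1 was higher. Of 7 chondrocyte and osteoblast markers 3 were lower, among them Col2a1. The summed signals of that list were 993 and 1174 in the mutant and 6152 and 6853 in WT. The part of any such cells in the results was not tested.

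Hox genes, which fix the position of cells along the body and limb axes and keep that pattern in cultured fibroblasts, were higher at 7 of 23 members and lower at 12. Only 5 of the 23 were above background on all 4 arrays, of which 3 were lower and 0 higher, and members above background in a single genotype had to differ. All 7 measured HoxB genes, on chromosome 11, were lower in Rela-/-Nfkb2-/- cells, with a median of -4.19, or -3.37 with dim genes at their bound. Hoxb7 read 4.78 and 4.85 in Rela-/-Nfkb2-/- cells, not above background, and 11.62 and 11.36 in WT cells, at least 52.5-fold lower, and Hoxb2 was lower by 4.68 ± 0.30. Of 6 HoxD genes, on chromosome 2, 5 were higher, with a median of 2.46, or 1.97 in the same way. Hoxd10 read 12.32 and 11.36 in Rela-/-Nfkb2-/- cells but was not above background in WT cells (5.39 and 5.28), at least 62.7-fold higher, and Hoxd12 was at least 9.38-fold higher, while Hoxd11 differed by -0.08. The HoxA genes divided by position, with Hoxa2, Hoxa4, Hoxa5 and Hoxa7 lower, Hoxa9 and Hoxa11 higher and Hoxa13 at -0.08, and of 3 HoxC genes 1 was lower. Hoxa5 read 8.86 and 7.86 in Rela-/-Nfkb2-/- cells and 12.02 and 11.87 in WT cells (-3.58 ± 0.30). In untreated Rela-/-Relb-/-Rel-/- cells Hoxb7 read 11.73 and 11.61 and Hoxd10 4.87 and 4.90, both near the WT values. Of the Hox probes above background on all 12 arrays 0 were called higher and 1 lower.

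**Figure D3:**
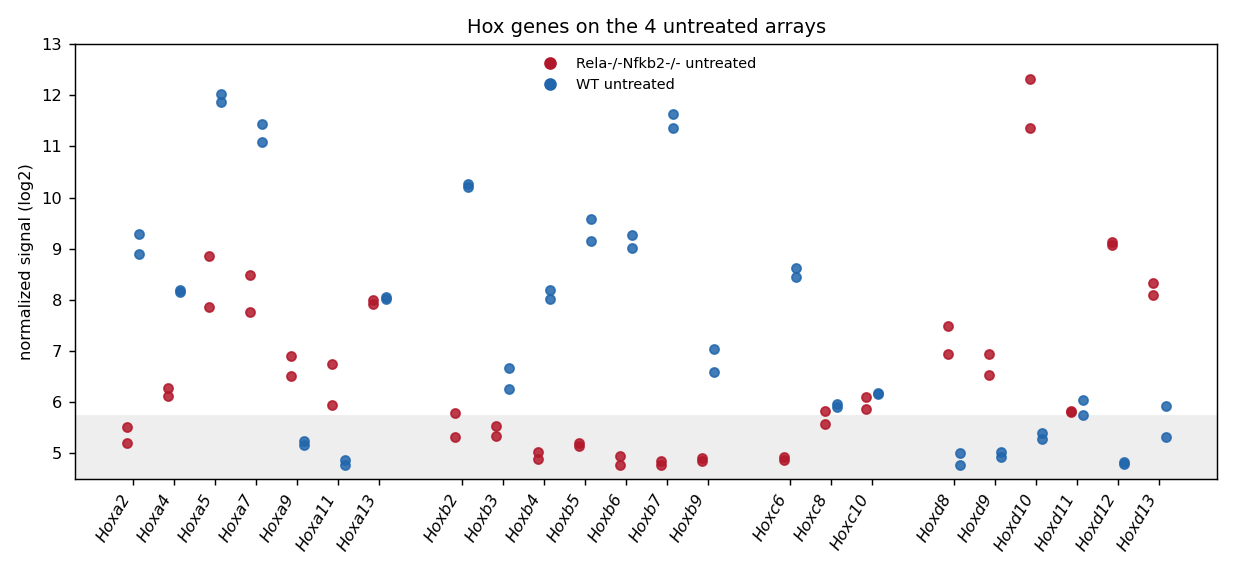
Normalized log2 signal (vertical axis) of the 23 Hox genes measured on the 4 untreated arrays, ordered by cluster and number, with Rela-/-Nfkb2-/- in red at the left and WT in blue at the right of each pair; the grey band ends at 5.74, the lowest above-background value of any array. All HoxB points of Rela-/-Nfkb2-/- cells lay below those of WT, and Hoxd8, Hoxd9, Hoxd10, Hoxd12 and Hoxd13 lay above.

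Among 29 other transcription factors of embryonic position and mesenchyme 6 were higher and 4 lower, beside 9.85% and 10.6% of all features. Lhx8 (3.27 ± 0.23), En1, an engrailed homeobox gene (2.24 ± 0.16), Shox2 (2.04 ± 0.28) and Irx3 (1.84 ± 0.28) were higher, and Nr2f1, encoding COUP-TFI, was lower by 2.88 ± 0.59 but not called without the first mutant or the second WT array (adjusted p up to 0.053). En1 read 9.68 and 9.59 in Rela-/-Nfkb2-/- cells and 7.35 and 7.44 in WT cells, without overlap, as at 56.7% of all features.

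Secreted signals and their modulators were counted with and without members above background in a single genotype, which had to differ. Of 20 WNT ligands and modulators 10 were higher and 2 lower, or 6 and 1 of the 13 above background on all 4 arrays. The median of the 20 was 0.98, or 0.55 with dim genes at their bound. The higher WNT genes were led by Dkk3 and Ccn4. Ccn4, a secreted WNT target, read 13.40 and 13.15 in Rela-/-Nfkb2-/- cells and 10.34 and 10.05 in WT cells (3.08 ± 0.18). Rspo3, an R-spondin that raises WNT signalling, was higher by 3.66 ± 0.25 and Sfrp2, a WNT-binding antagonist, at least 5.98-fold, with mutant arrays of 7.5 and 9.4. Wnt10b (at least 3.26-fold) and Sfrp1 (-1.52 ± 0.33, adjusted p up to 0.076 without either WT array) were the 2 lower. Of 37 growth factors and receptors 15 were higher and 7 lower, or 9 and 7 of the 31 above background on all 4 arrays. Igfbp2 and Igfbp5, binding proteins of the insulin-like growth factors, were at least 7.38- and 4.28-fold higher, Vegfc, the lymphatic growth factor, was higher by 3.09 ± 0.19, and Pgf, the placental growth factor of the same family, was lower by 3.68 ± 0.26, with Fgf10 (-2.68 ± 0.21), Gdnf (-2.14 ± 0.28) and Hbegf (-1.78 ± 0.18). Of 33 TGF-β and BMP pathway genes 8 were higher and 5 lower, or 5 and 4 of the 29 above background on all 4 arrays. Grem1, a BMP antagonist, read 12.54 and 13.36 in Rela-/-Nfkb2-/- cells and 10.52 and 11.10 in WT cells (2.14 ± 0.32), and Tgfb2 was at least 3.61-fold higher while Tgfb1 was lower by 1.65 ± 0.32. The count of higher genes was 5 without either WT array.

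Of 45 cell cycle genes 9 were lower and 4 higher, beside 10.6% and 9.85% of all features, with a median of -0.46. E2f2 (-1.24 ± 0.16) was lower, as were Foxm1 (-1.18 ± 0.19), Birc5 (-1.07 ± 0.25) and Top2a (-1.01 ± 0.20), genes of the G2 and M phases and of their regulation. But the count of lower genes was 3 with median scaling in place of quantiles, and it was smaller without either WT array. Birc5 was not called without the second array of either genotype (adjusted p up to 0.127), Top2a without the second WT array (0.055) and Ccnd1, encoding cyclin D1, without the first (0.0527). Plk1, the mitotic kinase that usually moves with them, read 11.67 and 11.13 in Rela-/-Nfkb2-/- cells but was not above background in WT cells (5.69 and 5.70), at least 46.2-fold higher. Ccnd1 was lower by 0.72 ± 0.14, whereas Ccnd2 (1.00 ± 0.14) and Ccnd3 (0.88 ± 0.17) were higher. Ccnd1 and Ccnd3 were not called with median scaling or in a fit of the 4 untreated arrays alone (limma adjusted p up to 0.383 and 0.0826). The imprinted cell cycle inhibitor gene Cdkn1c read 10.14 and 8.98 in Rela-/-Nfkb2-/- cells but was not above background in WT cells (4.88 and 4.83), at least 12.9-fold higher.

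The targets of p53, the tumour suppressor that arrests damaged cells, were listed together with the Cdkn2 locus. Of the 26 members 9 were lower and 2 higher, with a median of -0.37. Cdkn1a, encoding p21, read 12.40 and 12.60 in Rela-/-Nfkb2-/- cells and 13.61 and 13.44 in WT cells (-1.03 ± 0.15, adjusted p = 0.0013). Mdm2, the ubiquitin ligase of p53, was lower by 1.09 ± 0.19, its relative Mdm4 was at least 4.16-fold lower, and Ccng1 and Phlda3 were lower by 1.03 ± 0.15 and 1.07 ± 0.22. Mdm2 and Ccng1 were not called with median scaling (limma adjusted p = 0.107 and 0.118). Another probe of Mdm2 differed by -0.52 (unadjusted p = 0.0284 in limma). Cdkn2a, which encodes p16 and p19ARF and lies upstream of p53, was instead higher, at 10.72 and 11.09 in Rela-/-Nfkb2-/- cells and 9.16 and 8.96 in WT cells (1.84 ± 0.21, adjusted p = 0.000256), and another probe of Cdkn2a by 0.97 (unadjusted p = 0.0797 in limma). Pmaip1, encoding the pro-apoptotic protein NOXA, was at least 5.55-fold higher. Among 25 apoptosis and survival genes 4 were higher and 3 lower, near the 9.85% and 10.6% of all features. The inflammatory caspase genes Casp1 and Casp4 differed in opposite directions: Casp1 was at least 8.64-fold lower and Casp4 at least 17.5-fold higher. Another probe of Casp4 differed by -0.03 (unadjusted p = 0.901 in limma), and the call was lost where that probe stood for the gene. Ripk3, the kinase of necroptosis, was lower by 1.85 ± 0.21 and Bcl2l1, encoding BCL-XL, by 1.02 ± 0.20. Phlda3 was not called without the first array of either genotype (adjusted p up to 0.069), nor Bcl2l1 without the first WT array (0.0512).

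Genes of the unfolded protein and amino acid stress response were higher at 12 of 34 members and lower at 0, with a median of 0.43. Those that were higher included the amino acid transporter genes Slc7a5 (1.67 ± 0.21), Slc7a3 (1.5 ± 0.22) and Slc3a2 (1.42 ± 0.39), the glutathione-degrading enzyme gene Chac1 (1.86 ± 0.18) and several transfer RNA synthetases. Chac1 read 12.64 and 12.75 in Rela-/-Nfkb2-/- cells and 10.96 and 10.70 in WT cells. The chaperone genes Hspa5, Pdia4 and Calr differed by -0.41 to -0.30 and none passed. With median scaling 6 of the list were higher, and without the first WT array 7, and Slc3a2 was not called without the second mutant array or either WT array (adjusted p up to 0.155). Immediate early genes, which respond first to growth factors, were lower at 7 of 26 members and higher at 2. Dusp4, a MAP kinase phosphatase, was lower by 3.53 ± 0.22, Fosl1, encoding FRA1, by 2.37 ± 0.30 and Jun by 1.19 ± 0.17, while Fos (2.43 ± 0.44) and Atf3 (at least 4.09-fold) were higher, and 4 genes were lower without the second array of either genotype. Cytosolic ribosomal protein genes, a housekeeping set, were higher at 1 (Rps15a) and lower at 2 (Rps13, Rps15) of 50 members. The highest difference of the list was 3.14. Rps15a was not above background on all 4 arrays, and of the 48 members that were, 0 were higher and 2 lower. Rps13 and Rps15 lost their calls when 1 array was left out, with differences then of -0.796 to -0.361 and -0.655 to -0.467.

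**Figure D4:**
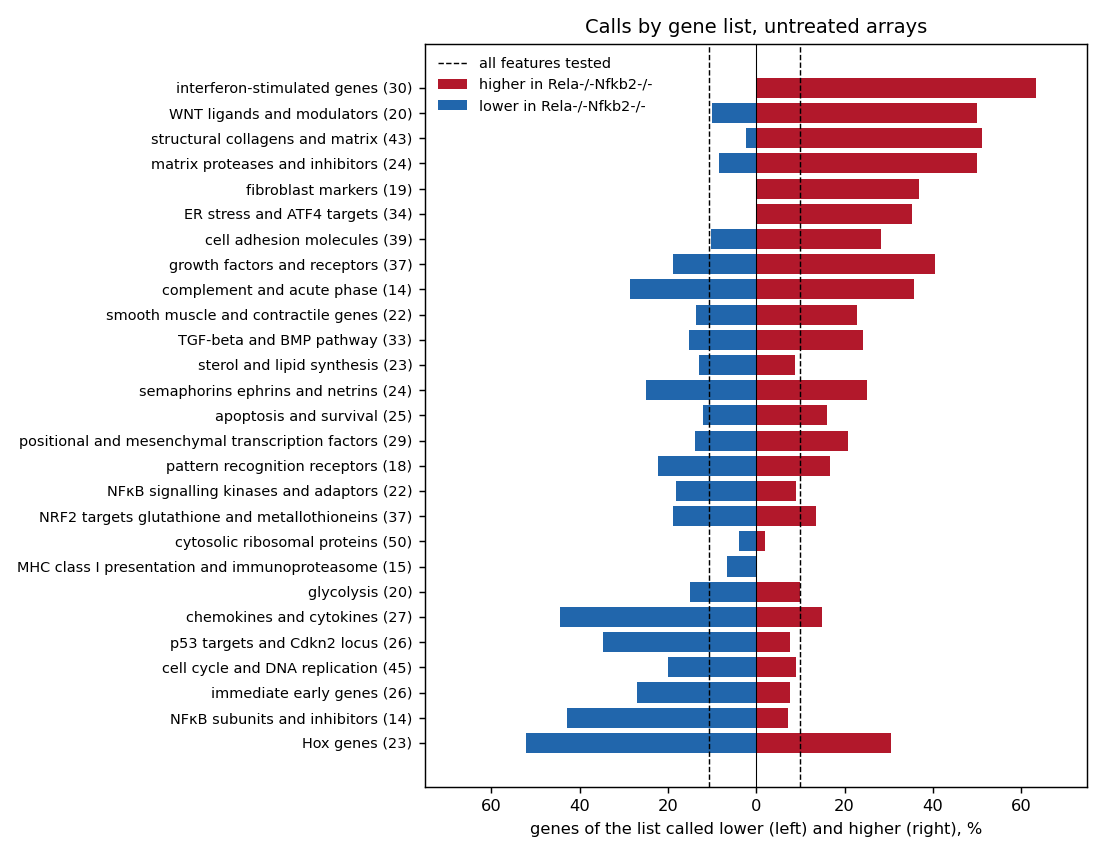
Percent of the members of each gene list (number of members in brackets) called lower (blue, left of 0) and higher (red, right of 0) in untreated Rela-/-Nfkb2-/- cells; dashed lines mark the 10.6% lower and 9.85% higher over all features tested. Interferon-stimulated, WNT, matrix and protease genes lay beyond the line on the higher side. NFκB subunits and inhibitors (Rela included), chemokines, p53 targets with the Cdkn2 locus, and Hox genes lay beyond the line on the lower side. Chemokines and Hox genes also lay beyond the line on the higher side, and ribosomal proteins lay within both.

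The genotype difference was read again on the 4 arrays of TNF-treated cells. These entered the untreated comparison through the shared estimate of the spread, the joint quantile normalization and the choice of probes. Between the TNF-treated genotypes 10% of all features were called higher and 13.9% lower. Of the 976 members higher before TNF, 865 (88.6%) had the same sign after TNF, 549 (56.2%) passed the threshold the same way and 21 the opposite way. Of the 1060 lower before TNF, 972 (91.7%) had the same sign, 661 (62.4%) passed the same way and 10 the opposite way. Mutant arrays of the same number deviated together across the treatments (correlation of their deviations from the group means 0.67 over features, 0.32 in WT), so these arrays are not fully separate readings.

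After TNF, Thy1 read 14.38 and 14.39 in Rela-/-Nfkb2-/- cells and 4.93 and 4.93 in WT cells, and Ptgis 4.97 and 5.00 against 12.33 and 12.33. Hoxb7 read 4.87 and 4.89 in TNF-treated Rela-/-Nfkb2-/- cells and 11.33 and 11.10 in TNF-treated WT cells. For these genes and for Pdpn, which differed by 7.00 after TNF, the separation of the genotypes was within 1 log2 unit of that before TNF. The difference changed with TNF for 4.09% of all features (adjusted p under 0.05 for the change itself), and the HoxD genes were among them: Hoxd10 read 12.32 and 11.36 on the untreated mutant arrays and 6.65 and 6.93 on the TNF-treated ones, and WT cells stayed at 5.39 or below. Hoxd12 read 9.07 and 9.13 on the untreated mutant arrays and 4.92 and 5.07 on the TNF-treated ones. Sema7a, a GPI-anchored semaphorin, was lower by 3.99 ± 0.24 before TNF and higher by 1.03 after it, and Rspo3 and Mmp13, both higher before TNF, differed by -1.43 and -2.88 after it. Of the 30 interferon-stimulated genes 9 were higher and 4 lower after TNF, and of the 43 matrix genes 19 were higher and 3 lower.

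**Figure D5:**
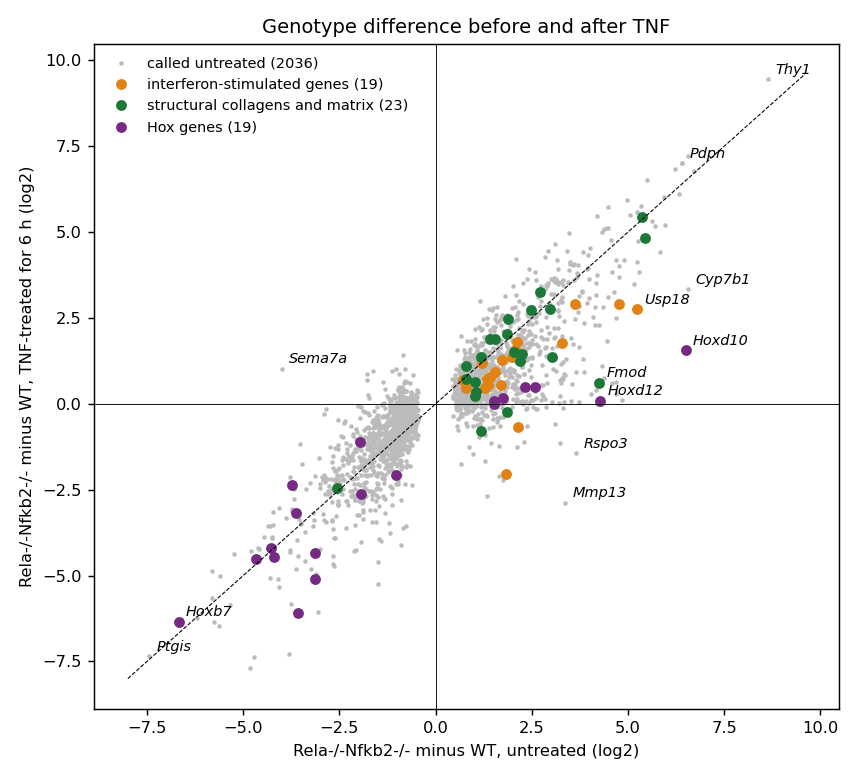
Rela-/-Nfkb2-/- minus WT after 6 h of TNF (log2, vertical axis) against the same difference in untreated cells (log2, horizontal axis) for the 2036 members called in untreated cells; colours mark 19 interferon-stimulated, 23 matrix and 19 Hox genes and the dashed line marks equal differences. Thy1, Pdpn, Ptgis and Hoxb7 lay near the line, while Hoxd10, Hoxd12, Fmod and Cyp7b1 lay below it and Sema7a, Rspo3 and Mmp13 changed sign.

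The called genes were not evenly spread over the chromosomes. On chromosome 7, 161 of 661 members (24.4%) were lower and 37 (5.6%) higher, with a median difference of -0.41. On chromosome 19, which carries both targeted genes, 70 of 318 members (22%) were lower and 18 higher, with a median of -0.26. The medians of the other chromosomes lay between -0.14 and 0.17. Both mutant arrays showed these shifts, with medians of -0.36 and -0.47 against the WT mean on chromosome 7 and -0.25 and -0.36 on chromosome 19. In Rela-/-Relb-/-Rel-/- cells the medians were -0.27 and -0.38 on chromosome 7 and 0.05 and 0.01 on chromosome 19. Chromosomes X (-0.477), 12 (-0.347) and 8 (-0.327) had lower median differences from WT in that line than chromosome 7 (-0.288). Between the TNF-treated genotypes the median was -0.182 on chromosome 7 and -0.191 on chromosome 19, beside 0.195 on chromosome 5 and 0.174 on chromosome 1. Near Rela (chromosome 19, 5637442 to 5648134, GRCm38.p6), 13 of the 20 nearest genes were members, of which 6 were lower and 0 higher, with a median of -0.52. The neighbour Rnaseh2c, a subunit of ribonuclease H2, read 8.06 and 7.90 in Rela-/-Nfkb2-/- cells and 9.23 and 9.33 in WT cells (-1.30 ± 0.18, adjusted p = 0.000994), and Ap5b1 was lower by 1.45 ± 0.26. Near Nfkb2 (46300994 to 46312400 on the same chromosome), 11 of the 20 nearest genes were members, of which 2 were lower and 0 higher, with a median of -0.05. What set these shifts was not tested.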

How the data were processed

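RNA of 12 MEF samples was hybridised to Illumina MouseRef-8 v2.0 arrays. The authors deposited a non-normalized intensity and a detection p-value for each of 25697 probes and array, exported from GenomeStudio, and a table of background-subtracted, quantile-normalized intensity, used here only as an alternative. The intensities were background-corrected from the detection p-values with an offset of 16, quantile-normalized and put on the log2 scale (neqc, limma 3.58.1 in R 4.3.3). Quantile normalization removes a shift common to most genes, and the offset shrinks the fold changes of dim probes. Probes with a detection p-value under 0.05 on both arrays of any of the 6 groups were kept (13387), and the brightest probe stood for a gene with several (2443 genes), which left 10031 features. Gene symbols were those of the platform annotation, given for 23978 probes, of which 23962 matched the RefSeq gene table of GRCm38.p6 by Entrez identifier.

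Group means were estimated in 1 linear model over all 12 arrays (lmFit, eBayes, 6 residual and 2.92 prior degrees of freedom), with Benjamini-Hochberg adjustment over all features in each contrast. For a gene below background on both arrays of a genotype, "at least N-fold" compares the mean of the brighter genotype with, for each dim array, the higher of the gene's own value and the lowest value of any probe above background there (log2 5.74 to 6.04 over the arrays). Each array had 11637 to 12599 probes above background, and the number of arrays limits the precision. The members and the gene lists were chosen with earlier results of these data known. Lists are described by counts and medians beside those of all features, with no test of a list.

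Genes were named by rule: all tested NFκB subunits and inhibitors, the 15 largest called differences each way among genes above background on all 4 arrays, the 10 largest lower bounds each way, up to 5 called members each way of a list, and uncalled markers where a level is described. Named outside the rule, after their values were seen, were Ap5b1, Bgn, Calr, Ccl2, Ccnd1, Ccng1, Cd14, Cdkn1a, Col4a2, Cxcl1, Gbp2, Gbp3, Hoxa4, Hoxa7, Hoxa9, Hoxa11, Hoxa13, Hoxd11, Hspa5, Hspg2, Ifit2, Ifit3, Ifitm3, Irf1, Irf7, Irf9, Lox, Mdm2, Pdia4, Phlda3, Rnaseh2c, Samd9l, Stat2, Tnc and Zbp1. Promoter sequences are those of RefSeq for GRCm38.p6. The script was tested on simulated arrays before use. Alternatives were other background corrections and scalings, the deposited normalized table, other filters, probe rules and offsets, fits of fewer arrays, weights, trend and robust options, replicate blocks, the t-test and leaving out each array. The version of GenomeStudio is not stated in the sources used.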

Additional observations from a re-analysis of the deposited data

Results flagged for a closer look

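The difference between Rela-/-Nfkb2-/- and WT cells changed between untreated and TNF-treated arrays for 42 of the genes described (limma, adjusted p under 0.05 for the change itself). The change is the untreated minus the TNF-treated difference on the log2 scale, from 2 arrays in each of 4 groups, and no explanation was tested. Where a gene was not above background in a group, the change is one of normalized signals and not a measured fold.

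The HoxD genes that were higher in untreated Rela-/-Nfkb2-/- cells were closer to WT after TNF, with changes of 4.93 for Hoxd10 (adjusted p = 0.000316), 4.19 for Hoxd12, 2.10 for Hoxd13, 1.84 for Hoxd8 and 1.57 for Hoxd9. On the TNF-treated mutant arrays Hoxd10 read 6.65 and 6.93 and Hoxd12 4.92 and 5.07. The change was also positive for 4 HoxA genes, at 2.50 for Hoxa5, 1.96 for Hoxa7, 1.51 for Hoxa9 and 1.43 for Hoxa11.

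Higher before TNF and with the opposite sign after it were Mmp13 (change 6.25, adjusted p = 0.00131), Rspo3 (5.09), Gbp3 (3.85), Mmp3 (3.40), Cd40 (2.87), Parp14 (2.80) and Slc7a3 (1.94), and Nfkbiz (1.02) moved the same way without being called. Lower before TNF and with the opposite sign after it were Sema7a (change -5.02, adjusted p = 0.000195), Hbegf (-2.49), Map3k14 (-1.41) and Jun (-1.34).

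The difference was positive both times and larger before TNF for Tnfsf13b (change 3.66), Fmod (3.64), Cxcl5 (3.22), Cyp7b1 (3.21), C4b (2.65), Serping1 (2.60), Orm1 (2.17), Casp4 (1.67), Irak3 (1.52) and Vegfc (1.16), and smaller before TNF for Pmaip1 (-1.43). It was negative both times and larger in size after TNF for Chst1 (change 3.46), Gbp2b (2.86), Fgf10 (1.99), Ikbke (1.81), Nod2 (1.26) and Tnip1 (1.09), and smaller in size after TNF for Dusp4 (-2.35) and Lif (-1.87). Gbp2 and Irf1, near 0 before TNF (0.07 and 0.02), differed by -3.14 and -1.84 after it, changes of 3.21 and 1.86.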

How the results depend on the processing

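No called feature turned to a call in the opposite direction under any of the alternatives run. Over all features, 988 were higher and 1067 lower, against 481 and 637 of the 7425 features detected on all 12 arrays, and 617 and 538 in a fit of the 4 untreated arrays alone. The t-test of mutant against WT arrays, run on the same values, gave 881 and 1072 at an unadjusted p under 0.05, and 0 and 1 after Benjamini-Hochberg adjustment, while limma gave 3202 features at an unadjusted p under 0.05. Leaving out 1 array at a time gave 622 to 1055 higher and 586 to 1154 lower features. The counts were 728 and 910 without the first mutant array, 1037 and 888 without the second, 676 and 606 without the first WT array and 622 and 586 without the second. A lone array was then assumed to vary like the other groups. Other backgrounds, normalizations, filters, offsets, weights and probe rules gave 747 to 1042 higher and 778 to 1130 lower features. Median scaling, the lowest of these, moved the share of calls that were higher from 48.1% to 49%.

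Replicate numbers did not pair the compared groups: deviations from the group means of untreated mutant and WT arrays correlated by 0.00309 over features. A fit with the replicate number as a block gave 1196 higher and 1337 lower features, among them all 988 and 1067. A random block within genotype, where same-numbered arrays deviated together, gave 962 and 1018. Same-numbered arrays of the 2 mutants also deviated together (0.673 untreated), which no random block across genotypes took up. Of the 185 genes described, 184 kept their side of the threshold with the block.

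Casp4, called higher, was at -0.0283 (adjusted p = 0.952) with the probes detected on all 12 arrays, where another probe of the gene stood for it. The other called genes described kept their direction in every alternative that could be run for them, and 12 lost their call with median scaling and 18 in the 4-array fit. Map3k14, Traf6, Rps13 and Coro1a lost it most often, in 19, 15, 14 and 13 alternatives tested by limma, among them those without arrays of the other groups. Among the probes detected on all 12 arrays, 9 interferon-stimulated, 12 matrix and 7 protease genes were higher, against 19, 22 and 12, and 3 NFκB subunits and inhibitors and 3 chemokines and cytokines were lower, against 6 and 12, as fewer genes were then tested. Of the 976 and 1060 members, the shares that passed the same way after TNF stayed between 45.7% and 67.7% and between 47.9% and 76.8%. The cause of the differences between settings was not tested. With 2 arrays a group, and genes near background bounded only from one side, small differences and differences at low signal were not resolved.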
